A study of Mus musculus with 13 samples.

Results

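Rnf213, Rtp4, Ifi27l2a, Xaf1 and Lgals3bp are 5 interferon-stimulated genes among the 21084 genes listed in the deposited count table. They were picked by name because their levels were much higher after interferon alpha (IFNa) in these same libraries. Their difference between IFNa and PBS is therefore described without a test, and tests are kept for the antibody. The cells were gamma delta intraepithelial lymphocytes, T cells that sit between the epithelial cells of the gut, sorted from the small intestine of wild-type (WT) mice. Mice in the UC7-IFNa and UC7-PBS groups (3 libraries each) were injected with UC7-13D5 (200 µg), an Armenian hamster antibody that binds the T cell receptor of gamma delta T cells. Mice in the IgG-IFNa group (4 libraries) and the IgG-PBS group (3 libraries) received control Armenian hamster IgG instead. The treatment protocol puts the antibody injections at 48 and 24 h before the cells were isolated, while the series design gives 48 or 24 h. IFNa (1 µg) or phosphate buffered saline (PBS) was given intravenously for the last 5 h. Age and sex are not given in the labels, and neither is the number of mice behind a library, so the p-values measure the spread between libraries.

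Type I interferons bind the IFNAR1 and IFNAR2 receptor chains and lead to a transcription factor complex that contains IRF9 and binds short GAAA-rich elements in gene promoters. The genes switched on in this way act at many points. Rnf213 encodes a giant E3 ubiquitin ligase with ATPase modules, found at lipid droplets and, in human cells, on intracellular bacteria. Rtp4 encodes a chaperone that helps G protein-coupled receptors reach the cell surface. Ifi27l2a encodes a small hydrophobic membrane protein of the IFI27 family. Xaf1 encodes a zinc finger protein that binds XIAP and opposes its block on caspases. Lgals3bp encodes a secreted glycoprotein that binds galectin-3.

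In mm39 coordinates of the deposited table, Rnf213 (ENSMUSG00000070327) lies on the plus strand of chromosome 11 from 119283926 to 119378245. Lgals3bp (ENSMUSG00000033880) lies on the minus strand of chromosome 11 from 118283577 to 118292919, and Xaf1 (ENSMUSG00000040483) on the plus strand of chromosome 11 from 72192455 to 72204560. Rtp4 (ENSMUSG00000033355) lies on the plus strand of chromosome 16 from 23339041 to 23432973. Ifi27l2a (ENSMUSG00000079017) lies on the minus strand of chromosome 12 from 103408426 to 103409940. All 5 are annotated as protein-coding. Rnf213 overlaps A930037H05Rik, a long noncoding RNA on the opposite strand that did not exceed 2.13 CPM (counts per 1000000 scaled counts) in any library. Whether the counting used strand is not given in the sources used here, so reads of these overlapping genes cannot be told apart.

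The RefSeq promoter table (GRCm38.p6, 250 bases before to 50 after the start of transcription) held 3 of the 5 genes, and their sequences are shown because these genes were high in the same libraries and interferon acts through promoter elements. Capitals mark matches, on either strand, to AANNGAAA, the core bound by interferon regulatory factors. The Xaf1 sequence is chr11:72301379-72301678 on the plus strand, that of Lgals3bp is chr11:118401910-118402209 on the minus strand, and that of Rnf213 is chr11:119389849-119390148 on the plus strand. Rtp4 and Ifi27l2a were not in the table.
Xaf1: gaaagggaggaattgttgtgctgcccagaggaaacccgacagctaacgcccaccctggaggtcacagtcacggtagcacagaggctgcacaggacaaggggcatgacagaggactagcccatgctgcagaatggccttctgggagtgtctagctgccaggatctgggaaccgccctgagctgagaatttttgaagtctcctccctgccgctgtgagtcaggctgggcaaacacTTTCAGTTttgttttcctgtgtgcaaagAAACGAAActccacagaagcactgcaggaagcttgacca
Lgals3bp: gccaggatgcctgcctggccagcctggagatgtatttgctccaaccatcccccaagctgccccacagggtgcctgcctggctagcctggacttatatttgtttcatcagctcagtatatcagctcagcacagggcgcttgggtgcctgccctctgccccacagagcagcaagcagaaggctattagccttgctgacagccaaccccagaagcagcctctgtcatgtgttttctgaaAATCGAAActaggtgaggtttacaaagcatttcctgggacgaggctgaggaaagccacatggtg
Rnf213: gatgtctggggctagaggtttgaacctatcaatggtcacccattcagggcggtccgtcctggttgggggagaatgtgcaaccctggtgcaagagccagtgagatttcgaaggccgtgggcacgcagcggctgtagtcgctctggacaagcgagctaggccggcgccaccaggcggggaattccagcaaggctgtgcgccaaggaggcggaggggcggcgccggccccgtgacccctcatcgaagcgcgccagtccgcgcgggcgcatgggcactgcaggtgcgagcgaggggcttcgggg

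The Xaf1 promoter held 2 matches to AANNGAAA, around its start site. With position 0 as the first base after the 250 upstream bases, TTTCAGTT (the motif read on the minus strand) spans -17 to -10 and AAACGAAA spans 11 to 18. The Lgals3bp promoter held 1 match, AATCGAAA, from -14 to -7, and the Rnf213 window held none. Neither the longer interferon-stimulated response element (GAAA, 2 bases of any kind, GAAA), which contains the AANNGAAA core, nor the STAT site TTCNNNGAA, searched on both strands, was found in any of the 3 windows. Of all 32851 promoters of the same length, 23.9% held AANNGAAA, 3.44% held the longer element and 8.30% held TTCNNNGAA. Of 78 promoters of 58 other listed interferon-stimulated genes, 64.1%, 41.0% and 14.1% held AANNGAAA, the longer element and TTCNNNGAA in that order. A match describes the letters and does not show a bound site. The windows use another genome build than the deposited gene positions, and whether their start sites are those of the counted genes was not checked. The lack of a match in the Rnf213 window is thus not read as a lack in its promoter.

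The 13 libraries summed to between 19867201 and 26895876 estimated counts, and each of the 5 genes had between 259 and 16172 of them in a library. Levels are CPM after TMM scaling of the library sizes. All 11 markers of gamma delta intraepithelial lymphocytes (Trdc, Trgc1, Cd3e, Cd160, Gzma and others) were detected. Their summed CPM was 51729 to 76461 in UC7-IFNa, 52405 to 62371 in UC7-PBS libraries, 50353 to 62493 in IgG-IFNa and 44416 to 48832 in IgG-PBS libraries. The IgG-PBS sums thus overlapped neither the IgG-IFNa nor the UC7-PBS sums. Most of the sum came from Gzma (22186.5 to 47294 CPM over all libraries) and Gzmb (10360.5 to 14083 CPM), while Trdc had 159 to 211 CPM. Transcripts of the sex chromosomes did not match within or between groups: 4 Y-linked transcripts summed to 153 to 334 CPM in the 6 UC7 libraries, to 2.14, 1.67, 211 and 321 CPM in IgG-IFNa libraries 1 to 4, and to at most 0.296 CPM in IgG-PBS libraries. Xist was at most 1.08 CPM in UC7 libraries and 258 to 329 CPM in IgG-PBS libraries. In IgG-IFNa libraries 1 to 4 it was 203, 215, 68.5 and 23.5 CPM. Libraries 3 and 4 of that group thus held both Xist and Y-linked transcripts, and why was not tested. The antibody and this difference in sex-linked transcripts cannot be told apart, and no UC7 library lacks Y-linked transcripts. After IgG, the IFNa libraries had more Y-linked transcripts and less Xist than the PBS libraries. The IFNa effect after IgG and the interaction are therefore partly mixed with this difference too. UC7-IFNa library 2 stood apart, with a correlation across genes of 0.940 and 0.943 with its group mates, against 0.984 between those, and with 1.14% of its counts on Rn18s, against 0.0866% to 0.333% in the other 12 libraries. Values are therefore given with and without it where it moves them. In bulk RNA, fewer cells of a type and less RNA per cell cannot be told apart.

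All 5 genes were higher in every IFNa library than in every PBS library of the same antibody arm. The genes were chosen on this difference, and how many of all genes separate in this way was not counted, so nothing is read from it. The smallest gap was for Lgals3bp after IgG, where the lowest IFNa library stood 1.42 times above the highest PBS library, and the widest was for Ifi27l2a after UC7-13D5, at 7.83 times. As counted by edgeR's quasi-likelihood test at a Benjamini-Hochberg adjusted p under 0.05, 53 of 15835 genes (0.335%) were higher and 4 (0.0253%) lower with IFNa after UC7-13D5, and 98 (0.619%) were higher and 33 (0.208%) lower after IgG. Nothing is read from the 5 genes against these shares, since they were chosen on these contrasts. The median log2 fold change of all genes tested was 0.022 after UC7-13D5 and -0.012 after IgG. Without UC7-IFNa library 2 the genes called in either direction numbered 110 rather than 57 (0.36%) after UC7-13D5, and 430 rather than 131 (0.827%) after IgG.

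**Figure D1:**
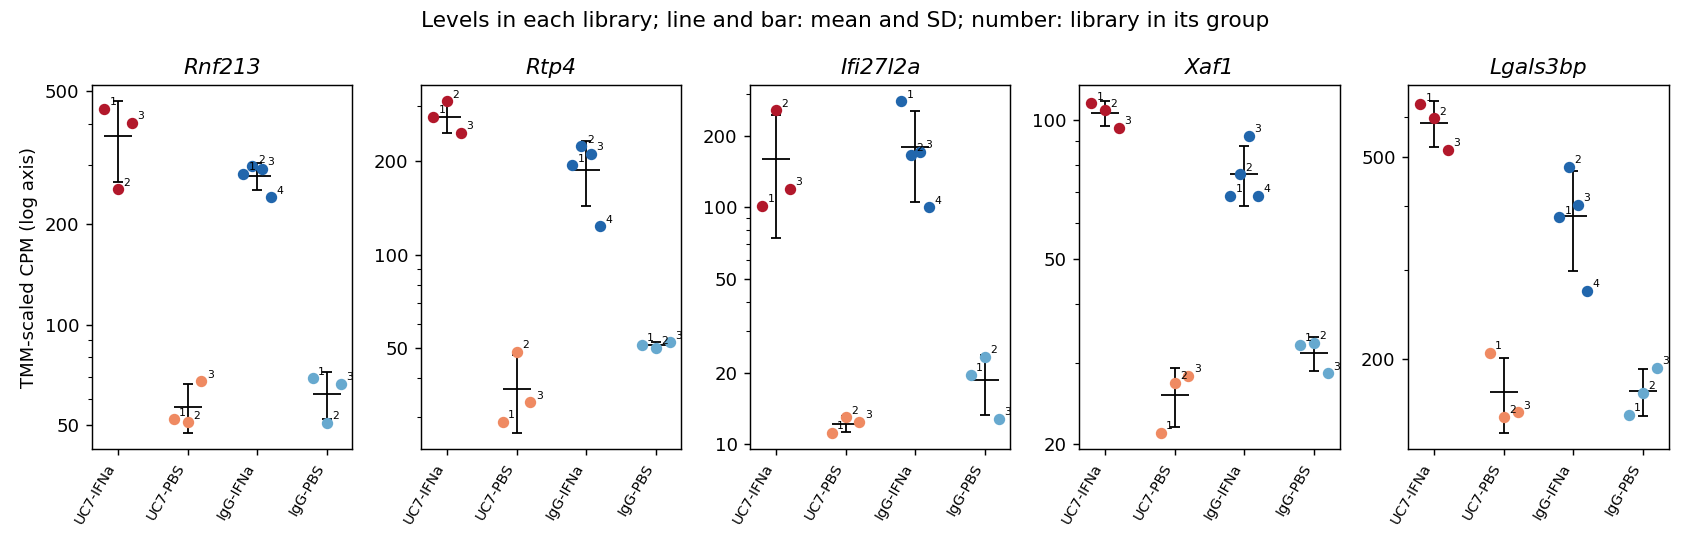
TMM-scaled CPM on a log axis in each of the 13 libraries, by group, for the 5 genes. Points are libraries, numbered within their group, and the black line and bar are the mean and SD. Every IFNa library lies above every PBS library of its arm, and the UC7-IFNa points lie above all IgG-IFNa points for Rtp4, Xaf1 and Lgals3bp. The shares of all genes without overlap between IFNa and PBS or between the antibodies were not counted.

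Rnf213, the ubiquitin ligase, had 443, 254 and 403 CPM in UC7-IFNa libraries 1 to 3 and 52.1, 51.0 and 67.7 CPM in UC7-PBS libraries. It had 284, 299, 294 and 241 CPM in IgG-IFNa libraries and 69.1, 50.8 and 66.7 CPM in IgG-PBS libraries. UC7-IFNa libraries 1 and 3 were above every IgG-IFNa library, and library 2 fell within their range, so those groups overlap, as do the PBS groups. IFNa over PBS came to a log2 fold change of 2.69 (SE 0.21) after UC7-13D5 and of 2.17 (SE 0.20) after IgG, which is 6.44-fold and 4.49-fold. Group means were 367 ± 99.6 CPM in UC7-IFNa, 56.9 ± 9.36 in UC7-PBS (SD, n = 3 each), 279 ± 26.4 in IgG-IFNa (n = 4) and 62.2 ± 9.92 in IgG-PBS libraries (n = 3). The UC7-IFNa mean and the IgG-IFNa mean differed by less than the SD in UC7-IFNa.

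Rtp4, the receptor chaperone, had 276, 310 and 246 CPM in UC7-IFNa libraries and 29.1, 48.8 and 33.6 CPM in UC7-PBS libraries. IgG-IFNa libraries had 193, 222, 210 and 123 CPM and IgG-PBS libraries 51.4, 50.1 and 52.2 CPM. All 3 UC7-IFNa libraries were above all 4 IgG-IFNa libraries, while all 3 UC7-PBS libraries were below all 3 IgG-PBS libraries, so Rtp4 did not overlap between antibodies with either injection and lay on opposite sides. How many of all genes lack such overlap was not counted, so nothing is read from it for Rtp4, Xaf1 or Lgals3bp. The log2 fold change of IFNa over PBS was 2.90 (SE 0.23, 7.47-fold) after UC7-13D5 and 1.87 (SE 0.21, 3.65-fold) after IgG. The means were 277 ± 32.1 CPM in UC7-IFNa, 37.1 ± 10.3 in UC7-PBS libraries, 187 ± 44.3 in IgG-IFNa and 51.3 ± 1.05 in IgG-PBS libraries.

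Ifi27l2a, the small membrane protein, varied most within groups, with a pooled SD of 0.53 on the log2 scale against 0.17 to 0.30 for the other 4. It had 102, 257 and 119 CPM in UC7-IFNa libraries and 11.2, 13.0 and 12.4 CPM in UC7-PBS libraries. IgG-IFNa libraries had 280.0, 167, 172 and 100.02 CPM and IgG-PBS libraries 19.6, 23.3 and 12.8 CPM. Both pairs of groups that differ by antibody overlap. Its log2 fold change with IFNa was 3.71 (SE 0.40, 13.1-fold) after UC7-13D5 and 3.27 (SE 0.38, 9.67-fold) after IgG, above the other 4 genes in both arms. UC7-IFNa library 2 was its highest library of that group, and without it the value after UC7-13D5 was 3.17. Ifi27l2a alone of the 5 had a lower mean in UC7-IFNa (159 ± 85.1 CPM) than in IgG-IFNa libraries (179.6 ± 74.5 CPM), a difference far below either SD. It averaged 12.2 ± 0.921 CPM in UC7-PBS and 18.6 ± 5.33 CPM in IgG-PBS libraries.

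Xaf1, the XIAP-binding protein, varied least, with a pooled SD of 0.17 on the log2 scale. It had 108, 105 and 96.1 CPM in UC7-IFNa libraries and 21.2, 27.2 and 28.1 CPM in UC7-PBS libraries. IgG-IFNa libraries had 68.6, 76.2, 92.4 and 68.4 CPM and IgG-PBS libraries 32.7, 33.1 and 28.4 CPM. As with Rtp4, no UC7-IFNa library fell into the IgG-IFNa range, and no UC7-PBS library reached the IgG-PBS range, though the gap there was narrow (28.1 against 28.4 CPM). The log2 fold change with IFNa was 2.01 (SE 0.16, 4.04-fold) after UC7-13D5 and 1.28 (SE 0.15, 2.43-fold) after IgG. Means were 103 ± 6.32 CPM in UC7-IFNa, 25.5 ± 3.75 in UC7-PBS libraries, 76.4 ± 11.2 in IgG-IFNa and 31.4 ± 2.60 in IgG-PBS libraries.

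Lgals3bp, the secreted galectin-3 ligand, had the smallest fold changes of the 5, at 1.76 on the log2 scale (SE 0.20, 3.39-fold) after UC7-13D5 and 1.15 (SE 0.19, 2.22-fold) after IgG. It had 637, 597 and 518 CPM in UC7-IFNa libraries and 205.5, 154 and 157 CPM in UC7-PBS libraries. IgG-IFNa libraries had 381, 479, 403 and 272 CPM and IgG-PBS libraries 155, 172 and 192 CPM. The UC7-IFNa libraries were all above the IgG-IFNa libraries, and the PBS groups overlapped, with means of 172 ± 29.0 CPM in UC7-PBS and 173 ± 18.4 CPM in IgG-PBS libraries. With IFNa the means were 584 ± 60.7 CPM in UC7-IFNa and 384 ± 85.5 CPM in IgG-IFNa libraries.

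The order of the group means was UC7-IFNa, IgG-IFNa, IgG-PBS and UC7-PBS for 4 of the 5 genes, and IgG-IFNa came before UC7-IFNa for Ifi27l2a. Neighbours in that order whose means differed by less than the larger of their SDs were the IFNa groups for Rnf213 and Ifi27l2a and the PBS groups for Rnf213 and Lgals3bp. Ranked by log2 fold change with IFNa among 15835 genes, the 5 stood at places 24 (Ifi27l2a), 39 (Rtp4), 48 (Rnf213), 86 (Xaf1) and 119 (Lgals3bp) after UC7-13D5. After IgG they stood at places 24 (Ifi27l2a), 83 (Rnf213), 130 (Rtp4), 322 (Xaf1) and 422 (Lgals3bp). Rnf213 and Rtp4 thus changed places between the arms. These ranks include low genes with wide errors and describe where the choice of the 5 genes fell.

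With IFNa present in both groups, the effect of UC7-13D5 relative to IgG was positive for 4 of the 5 genes, but none passed the threshold. The median effect over all genes tested was 0.011. Over all genes, 12 of 15835 (0.0758%) were called in this comparison, 6 (0.0379%) in each direction. Lgals3bp had a log2 fold change of 0.61 (SE 0.18, 95% interval 0.23 to 0.99), with an adjusted p of 0.346 by edgeR's quasi-likelihood test. Rtp4 had 0.57 (SE 0.20, 0.14 to 0.99, adjusted p 0.511), and Xaf1 0.43 (SE 0.15, 0.12 to 0.74, adjusted p 0.470), by the same test. Rnf213 had 0.39 (SE 0.19, -0.0034 to 0.79, adjusted p 0.697), and Ifi27l2a -0.17 (SE 0.33, -0.87 to 0.53, adjusted p 0.904). The unadjusted p was under 0.05 for 3 of the 5, namely Lgals3bp, Xaf1 and Rtp4, and for 1138 of all 15835 genes. DESeq2 and limma also called none of the 5, with lowest adjusted p-values of 0.159 and 0.262. Without UC7-IFNa library 2, Rnf213 came to 0.59 (adjusted p 0.281) and Ifi27l2a to -0.71 (adjusted p 0.825), and only 2 genes of all were called. All 5 effects were computed against the same 4 IgG-IFNa libraries, of which library 4 was the lowest for each of the 5 genes. Without that library Lgals3bp came to 0.47, Rtp4 to 0.41 and Xaf1 to 0.38, and again 2 genes of all were called.

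With PBS, 0 of the 5 genes passed the threshold for UC7-13D5 against IgG, as against 1 of 15835 genes (0.00632%). All 5 log2 fold changes were negative, but the 5 values share the same libraries. The median over all genes tested was -0.0099. Ifi27l2a had -0.61 (SE 0.36, 95% interval -1.38 to 0.17), Rtp4 -0.46 (SE 0.22, -0.93 to -0.00077) and Xaf1 -0.30 (SE 0.16, -0.64 to 0.04). Rnf213 had -0.13 (SE 0.20, -0.56 to 0.30) and Lgals3bp -0.0065 (SE 0.19, -0.42 to 0.40). The lowest adjusted p among the 5 was 0.998 by edgeR, 0.884 by DESeq2 and 0.982 by limma. Rtp4 alone had an unadjusted p under 0.05 (0.0497), as had 791 of all genes.

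The interaction asks whether the IFNa effect differed between the antibody arms, and 0 of the 5 genes passed, as did 0 of 15835 genes (0%). DESeq2 called 2 genes of all and none of the 5, limma called none, and 502 genes had an unadjusted p under 0.05 in edgeR. The difference of log2 fold changes was positive for all 5, at 1.03 for Rtp4 (SE 0.30, 95% interval 0.40 to 1.66), 0.73 for Xaf1 (SE 0.22, 0.27 to 1.20) and 0.61 for Lgals3bp (SE 0.26, 0.054 to 1.17). It was 0.52 for Rnf213 (SE 0.28, -0.065 to 1.11) and 0.43 for Ifi27l2a (SE 0.49, -0.61 to 1.47). The median over all genes tested was 0.016, and the 5 values share the same libraries. The unadjusted p-values of the quasi-likelihood test were 0.00325 for Rtp4, 0.00413 for Xaf1 and 0.0337 for Lgals3bp, and every adjusted p was 1.00. A larger IFNa effect after UC7-13D5 was thus not shown for any of them, and the intervals do not exclude a difference above 1 on the log2 scale. Without UC7-IFNa library 2, the value for Rnf213 was 0.72 and that for Ifi27l2a turned to -0.10.

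**Figure D2:**
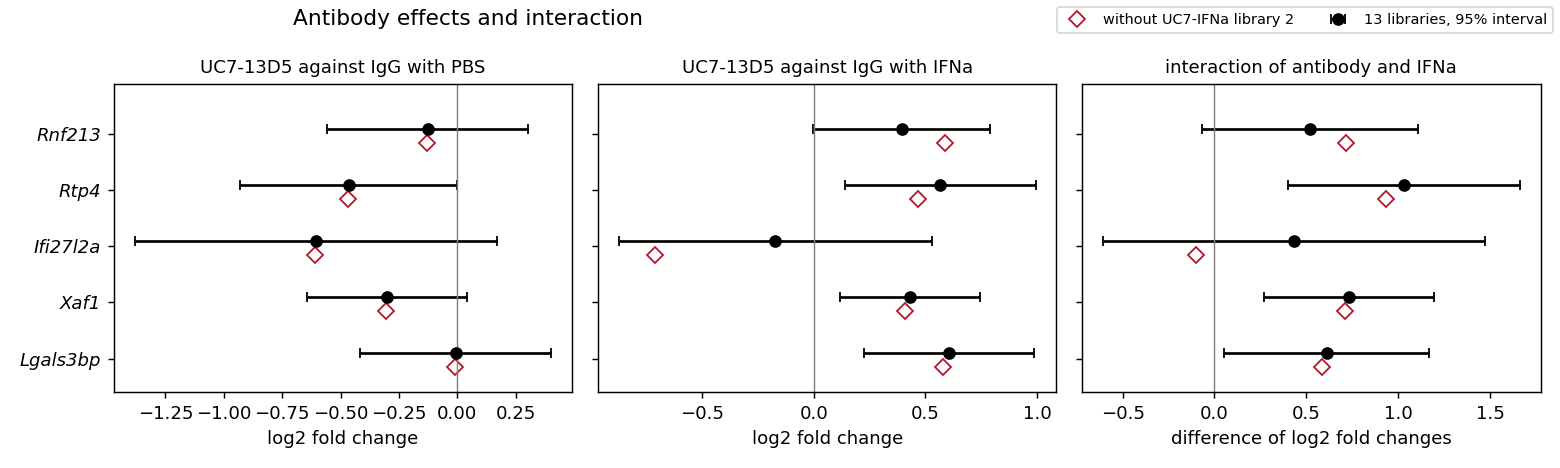
Log2 fold changes of UC7-13D5 over IgG with PBS (left) and with IFNa (middle), and the difference of the IFNa log2 fold changes between the antibody arms (right), for the 5 genes. Black points and bars are estimates with 95% intervals from all 13 libraries, and red diamonds the estimates without UC7-IFNa library 2. Only Ifi27l2a changes sign without that library, in the interaction.

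The libraries that were high or low for a gene differed between the 5. UC7-IFNa library 2 was 0.81 above its group mean on the log2 scale for Ifi27l2a and 0.17 above for Rtp4, was 0.49 below for Rnf213, and lay within 0.04 for Xaf1 and Lgals3bp. Of 68 other interferon-stimulated genes tested, this library was the lowest of its group for 47, against 4 for UC7-IFNa library 1 and 17 for UC7-IFNa library 3. Over all 15835 genes it was the lowest for 44.9% and the highest for 43.9%. IgG-IFNa library 4 was below its group mean for all 5 genes, from -0.15 for Xaf1 to -0.75 for Ifi27l2a. It was the lowest of its group for 30 of the 68 listed genes and for 20.8% of all genes, and it also had the highest sum of Y-linked transcripts in IgG-IFNa (321 CPM).

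**Figure D3:**
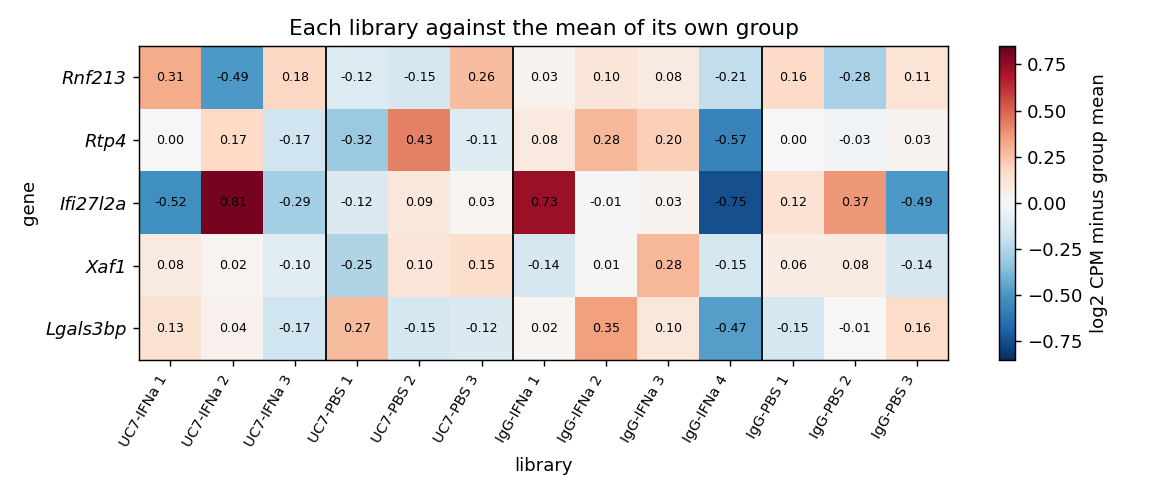
Log2 CPM of each library minus the mean of its own group, for the 5 genes (rows) in 13 libraries (columns, with black lines between groups). Red is above and blue below the group mean. IgG-IFNa library 4 is blue in all 5 rows, while UC7-IFNa library 2 is red for Ifi27l2a (0.81) and blue for Rnf213 (-0.49).

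Among themselves, the 5 profiles over the 13 libraries were compared by the root mean square difference of log2 CPM after each gene was centred on its own mean. Xaf1 and Lgals3bp were the closest pair (0.30), followed by Rnf213 and Rtp4 (0.37), and Ifi27l2a and Lgals3bp the farthest (1.15). Among 9287 other genes, the profile of Xaf1 was most like those of Zbp1 (0.17), Irf7 (0.20) and Irf9 (0.27), against a median of 0.87 over all 9287. Lgals3bp was most like Dhx58 (0.15), Ube2l6 (0.21) and Irf9 (0.21), with a median of 0.80. Rtp4 was most like Bst2 (0.24), Zbp1 (0.34) and Irf7 (0.46), with a median of 1.25. Rnf213 was most like Irf7 (0.40), Ifit1 (0.42) and Bst2 (0.42), with a median of 1.24. Ifi27l2a had no gene nearer than Ifi213 (0.65), before Ifit3 (0.79) and Oas3 (0.81), with a median of 1.79. Each distance holds differences between groups and scatter within them, which were not separated, so these values describe profiles only.

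Of 72 other type I interferon-stimulated genes on a textbook list, 70 were in the count table and 68 were tested. This list and the lists below were chosen with earlier results of these data known. With IFNa 29 of the 68 rose after UC7-13D5 and 19 after IgG, against 0.335% and 0.619% of all genes tested. None of the 68 fell in either arm, and 18 rose in both. The median log2 fold change of the 68 was 1.02 after UC7-13D5 and 0.72 after IgG, against 0.022 and -0.012 for all genes tested. Ifit3, an antiviral protein that binds viral RNA together with its relatives, had a log2 fold change of 4.84 (SE 0.36) after UC7-13D5 and 3.37 (SE 0.33) after IgG, with adjusted p-values of 7.14e-06 and 0.000135 by edgeR's quasi-likelihood test. Bst2, a membrane tether of budding virus, had 2.58 (SE 0.23) after UC7-13D5 and 1.69 (SE 0.21) after IgG, with adjusted p-values of 1.50e-05 and 0.00125. Zbp1, a sensor of Z-form nucleic acid, had 2.12 (SE 0.19) after UC7-13D5 and 1.40 (SE 0.17) after IgG, with adjusted p-values of 1.50e-05 and 0.00125. Irf7, a transcription factor that amplifies interferon production, had 1.94 (SE 0.17) after UC7-13D5 and 1.40 (SE 0.16) after IgG, with adjusted p-values of 1.66e-05 and 0.000793. In the interaction, 57 of the 68 were above 0, and none was called. The number that rose after UC7-13D5 was 16 to 41 with 1 library left out, lowest without UC7-PBS library 1 and with 18 without UC7-PBS library 3. It was 41 without UC7-IFNa library 2. After IgG it was 8 to 32, with 12 and 9 without IgG-IFNa libraries 2 and 3, with 8, 9 and 10 without IgG-PBS libraries 1 to 3, and with 32 without UC7-IFNa library 2.

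**Figure D4:**
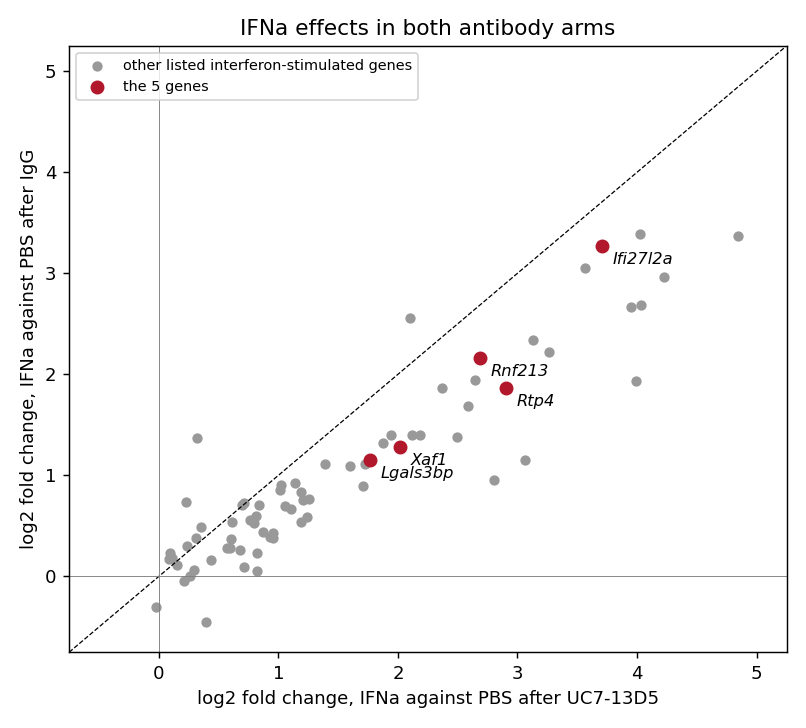
Log2 fold change of IFNa over PBS after UC7-13D5 (x axis) and after IgG (y axis) for the 5 genes (red) and 67 other tested interferon-stimulated genes (grey), with the line of equal values dashed. Oas2 is left out because it was at 0 CPM in all UC7-PBS libraries. All 5 red points lie below the line, as do most grey points.

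Of 12 genes of the interferon receptor and its signalling, 3 rose in each arm and none fell. Among these were Irf9, a subunit of the factor that binds interferon-responsive promoters, and Usp18, a feedback inhibitor at the receptor. Usp18 had a log2 fold change of 3.26 (SE 0.32) after UC7-13D5 and 2.22 (SE 0.29) after IgG, with adjusted p-values of 4.01e-05 and 0.00172 by edgeR. Irf9 had 1.60 (SE 0.15) and 1.10 (SE 0.14) in the same arms, with adjusted p-values of 3.84e-05 and 0.00172. The receptor chains did not pass the test, with 0.30 after UC7-13D5 and 0.64 after IgG for Ifnar1 and 0.11 and -0.06 for Ifnar2. The list's median was 0.25 after UC7-13D5 and 0.21 after IgG.

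Relatives and partners of the 5 genes were taken from lists of their families and pathways. The chromosomal neighbours Ifi27 and Ifi27l2b, the other members of the family of Ifi27l2a in the table, did not pass in either arm with all 13 libraries. With 1 library left out, up to 2 of the 3 family genes were called higher after IgG, so at least 1 relative passed there. Ifi27 had a log2 fold change of 0.83 (SE 0.22, adjusted p 0.242 by edgeR) after UC7-13D5 and 0.69 (SE 0.21, adjusted p 0.180) after IgG. Ifi27l2b had 0.27 (SE 0.52, adjusted p 0.938) after UC7-13D5 and 1.79 (SE 0.52, adjusted p 0.162) after IgG, at 0.628 to 7.14 CPM over all libraries. Near-identical stretches between family members could let the authors' counting split, drop or misplace reads, which was not tested. None of the 13 values of Ifi27l2a was fractional, against 12 for Rnf213, 9 for Lgals3bp, 8 for Rtp4 and 2 for Xaf1. Whole values do not show to which family member reads were assigned.

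Of 12 genes of the ubiquitin enzymes and lipid droplet proteins around Rnf213, 2 rose after UC7-13D5 and 1 after IgG. Ube2l6, the E2 enzyme that carries ISG15 and ubiquitin, had 1.67 (SE 0.21, adjusted p 0.000495 by edgeR) after UC7-13D5 and 1.04 (SE 0.19, adjusted p 0.0195) after IgG. Isg15, the ubiquitin-like modifier, had 1.26 (SE 0.23, adjusted p 0.0192) after UC7-13D5 and 0.76 (SE 0.21, adjusted p 0.131) after IgG. Ube2l3, an E2 enzyme for human RNF213, had 0.0014 and -0.10 in the same arms, and Pnpla2, a lipase of lipid droplets, had -0.059 and 0.018. With 1 library left out, the number that rose was 1 to 2 after UC7-13D5 and 0 to 3 after IgG. The median of the 12 was 0.00705 after UC7-13D5 and 0.014 after IgG.

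None of 12 genes of the inhibitor of apoptosis pathway around Xaf1 passed in either arm, nor any of 6 tested galectins. Xiap, the caspase inhibitor bound by the XAF1 protein, had -0.032 (SE 0.20) after UC7-13D5 and -0.034 (SE 0.19) after IgG. Lgals3, which encodes galectin-3, had 0.25 (SE 0.25) after UC7-13D5 and 0.49 (SE 0.24) after IgG, and Lgals9 had 0.12 (SE 0.18) and -0.38 (SE 0.17). The medians were 0.051 and 0.0098 for the apoptosis list and 0.14 and 0.22 for the galectins.

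With all 13 libraries, none of the 20 tested genes nearest to the 5, taken as 2 on each side by start position, was called in any of the 5 comparisons. Their median log2 fold change with IFNa was -0.075 after UC7-13D5 and 0.0096 after IgG, and their lowest adjusted p-values by edgeR were 0.242 (Ifi27) and 0.162 (Ifi27l2b). Beside Rnf213, Sgsh had -0.70 after UC7-13D5 and -0.67 after IgG, and Slc26a11 had -0.54 and -0.17. Beside Lgals3bp, Cant1 had 0.085 after UC7-13D5 and 0.0052 after IgG, and Usp36 had 0.16 and 0.29. Beside Rtp4, Bcl6 had -0.11 after UC7-13D5 and 0.37 after IgG. Beside Xaf1, Med31 had -0.060 after UC7-13D5 and 0.17 after IgG.

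**Figure D5:**
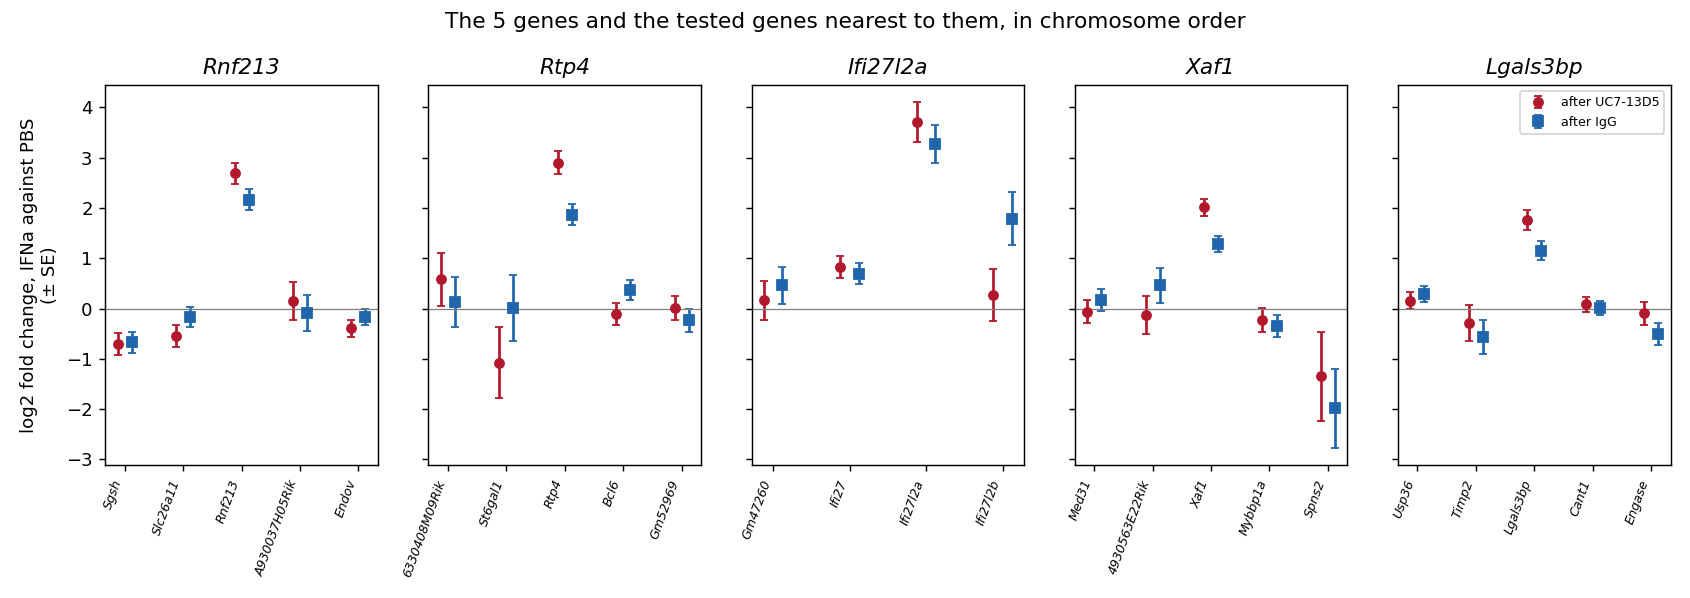
Log2 fold change of IFNa over PBS, with SE, after UC7-13D5 (red circles) and after IgG (blue squares) for each of the 5 genes and up to 2 tested neighbours on each side, in chromosome order. Serpina1b, beside Ifi27l2b, is not drawn because it was at 0 in a PBS group. Each of the 5 genes stands above its drawn neighbours in both arms, but the 5 were chosen for a rise with IFNa. The highest drawn neighbour value is that of Ifi27l2b after IgG (1.79, against 3.27 for Ifi27l2a).

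Sums of markers of other cells and of signs of handling were compared between the same groups. After IgG, those of stress genes and of secretory epithelium did not overlap between IFNa and PBS. With PBS, the sums of stress genes and of secretory epithelium did not overlap between UC7-13D5 and IgG either. All other sums given below overlapped between IFNa and PBS within an arm. A list of 17 dissociation and stress genes summed to 6906 to 12897 CPM in UC7-IFNa, 7981 to 10428 in UC7-PBS libraries, 7471 to 11519 in IgG-IFNa and 13431 to 17076 in IgG-PBS libraries. The 10 markers of secretory epithelium summed to 356 to 1231, 829 to 1866, 570 to 1171 and 78.3 to 525 CPM in the same order of groups. The 12 enterocyte markers summed to 206 to 354 CPM in UC7-IFNa, 248 to 297 in UC7-PBS libraries, 198 to 293 in IgG-IFNa and 150 to 255 in IgG-PBS libraries. The 13 measured myeloid and dendritic markers summed to 51.8 to 55.1 CPM in UC7-IFNa, 36.8 to 52.8 in UC7-PBS libraries, 31.3 to 55.0 in IgG-IFNa and 32.4 to 37.1 in IgG-PBS libraries, with Flt3 below 1 CPM in every library. The 5 measured B and plasma cell markers summed to 77.8 to 170 CPM in UC7-IFNa, 82.1 to 115 in UC7-PBS libraries, 63.4 to 102 in IgG-IFNa and 81.1 to 110 in IgG-PBS libraries. Cd79b made up most of that sum (61.3 to 116 CPM in UC7-IFNa libraries, 70.1 to 93.5 CPM in IgG-PBS libraries), with Jchain next (11.3 to 49.0 CPM in UC7-IFNa libraries, 9.15 to 14.2 CPM in IgG-PBS libraries), and Mzb1 was below 1 CPM in every library. The 7 measured stromal and endothelial markers summed to 17.3 to 27.6 CPM in UC7-IFNa, 13.2 to 28.2 in UC7-PBS libraries, 21.3 to 35.4 in IgG-IFNa and 21.7 to 26.9 in IgG-PBS libraries, mostly from Pecam1, and 5 of the 7 were below 1 CPM in every library. Markers of alpha beta T cells summed to 1692 to 2752 CPM in UC7-IFNa, 1540 to 1809 in UC7-PBS libraries, 1521 to 2161 in IgG-IFNa and 1538 to 1899 in IgG-PBS libraries. The part of these transcripts in the levels of the 5 genes was not tested. With the Y-linked share as a covariate, the IFNa log2 fold change of Ifi27l2a came to 3.47 after UC7-13D5 and 3.75 after IgG, and that of Rnf213 to 2.69 and 2.13.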

How the data were processed

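RNA of sorted gamma delta intraepithelial lymphocytes was, per the labels' protocols, extracted with RNeasy columns and converted to libraries by SMART-Seq HT chemistry. Partek, STAR 2.7.8a, DESeq2 and the build mm39 appear in the submitters' processing notes, with no role given. The authors deposited estimated counts for 21084 genes in 13 libraries, not scaled between libraries, of which 34.2% were not whole (tolerance 0.001). A second table deposited by the authors holds a signal per gene, normalized counts for 11281 genes, and was used for one alternative.

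The 5 genes and the gene lists were chosen with earlier results of these data known. Counts were rounded, and 15835 genes passed edgeR's filterByExpr by group (minimum count 10). One quasi-likelihood model (robust, TMM scaling, 1 coefficient per group, all 13 libraries) gave the 5 contrasts in edgeR 4.0.16 (R 4.3.3), with Benjamini-Hochberg adjustment over all genes and a threshold of 0.05. SE is the log2 fold change over the square root of F, and intervals cover 95%. Profiles used log2 CPM with a prior count of 2, over genes averaging at least 3 log2 CPM. Neighbours, like genes and list genes were named by fixed rules: 2 neighbours a side, the 3 most like genes, up to 4 called genes a list by smallest p, and any gene of a list of up to 13. Alternatives were DESeq2 1.42.0, limma 3.58.1 on log2(normalized count + 1), median-ratio (RLE) scaling, no filter, fitting only the groups compared, a replicate block, the Y-linked share as covariate, and libraries left out. The procedure was tested on simulated data. Some items on the lists are not reported here.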

Additional observations from a re-analysis of the deposited data

How the results depend on the processing

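The 5 genes were refitted under 22 alternatives. Of 330 adjusted p-values for antibody effects and interactions none passed 0.05, the lowest being 0.103 (Lgals3bp with IFNa, with the Y-linked share as covariate and UC7-IFNa library 2 left out, a setting chosen after seeing the data). The IFNa effects kept their sign throughout. Over all alternatives they ran, after UC7-13D5, from 2.53 to 2.90 for Rnf213, 2.75 to 3.15 for Rtp4, 3.17 to 3.94 for Ifi27l2a, 1.89 to 2.09 for Xaf1 and 1.69 to 1.90 for Lgals3bp. After IgG they ran from 2.04 to 2.27 for Rnf213, 1.78 to 2.07 for Rtp4, 2.98 to 3.75 for Ifi27l2a, 1.18 to 1.33 for Xaf1 and 1.03 to 1.37 for Lgals3bp. UC7-13D5 against IgG with IFNa stayed positive for Rnf213 (0.23 to 0.74), Rtp4 (0.41 to 0.80), Xaf1 (0.37 to 0.54) and Lgals3bp (0.44 to 0.94).

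Signs turned for uncalled values, and the cause was not tested. UC7-13D5 against IgG with PBS turned positive with the Y-linked share as covariate for Rtp4 (0.0079), Ifi27l2a (0.61) and Lgals3bp (0.43), and with that covariate and no UC7-IFNa library 2 for Rtp4 (0.024), Ifi27l2a (0.35), Lgals3bp (0.53) and Rnf213 (0.10). Lgals3bp also turned to 0.074, 0.066 and 0.055 without IgG-PBS library 3, UC7-PBS library 2 and UC7-PBS library 3. For Ifi27l2a with IFNa the sign turned with the covariate (0.33) and without IgG-IFNa library 1 (0.13) or UC7-IFNa library 1 (0.062). Its interaction turned with the covariate (-0.28), without UC7-IFNa library 2 (-0.10) and with both (-0.39). With 1 library left out at a time, Lgals3bp with PBS ran from -0.16 to 0.074, Ifi27l2a with IFNa from -0.71 to 0.13 and its interaction from -0.10 to 0.73.

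Counts of called genes over the whole table moved more. They were 1 for UC7-13D5 against IgG with PBS, 12 with IFNa, 0 for the interaction, 131 for IFNa after IgG and 57 after UC7-13D5. In the same order DESeq2 gave 64, 118, 2, 408 and 138. Fitting only the groups compared gave 19 and 0 for the antibody and 343 and 22 for IFNa. No filter gave 0 with PBS, and limma 2 with IFNa. The covariate gave 6 for the antibody with IFNa and 24 for IFNa after IgG. With the covariate and no UC7-IFNa library 2 these were 30 for the antibody with IFNa and 130 for IFNa after UC7-13D5. Without the 2 libraries of IgG-IFNa that carry Y-linked transcripts the counts were 5 with PBS, 6 with IFNa and 21 for IFNa after IgG. Leaving out 1 library at a time gave 0 to 4 with PBS, 0 to 52 with IFNa, 0 to 1 for the interaction, 24 to 430 for IFNa after IgG and 29 to 110 after UC7-13D5. After IgG the counts were 82, 35 and 45 without IgG-IFNa libraries 2, 3 and 4, and 24, 37 and 25 without IgG-PBS libraries 1 to 3. After UC7-13D5 they were 29 and 30 without UC7-PBS libraries 1 and 3.

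A replicate block gave 1 for the antibody with IFNa, 27 for IFNa after IgG and 34 after UC7-13D5, and it called none of the 5 genes for the antibody. The numbers are not shown to pair the libraries, as same-numbered libraries deviated with correlations of -0.21 to 0.13 (18 pairs) and others of -0.21 to 0.24 (45 pairs). The number 4 occurs only in IgG-IFNa, so the block gives that library its own term.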
